A study of Mus musculus with 6 samples.

Results

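Retinoic acid, the active form of vitamin A, is made inside cells from retinol in successive oxidations. Retinol dehydrogenases such as Rdh10 turn retinol into retinal, retinal dehydrogenases of the Aldh1a family turn retinal into retinoic acid, and reductases such as Dhrs3 return retinal to retinol. Crabp2 carries retinoic acid to its receptors, Rara, Rarb and their relatives bind DNA as partners of retinoid X receptors, and the Cyp26 enzymes break retinoic acid down. In smooth muscle, retinoic acid is known as a regulator of proliferation and differentiation. The 9 genes described here, Aldh1a1, Aldh1a2, Aldh1a3, Rdh10, Dhrs3, Crabp2, Rara, Rarb and Cyp26b1, were taken by name from a table of 25683 genes, and all of them were found in it.

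RNA was measured in 3 libraries of Nt5e knock-out cells (libraries 1, 2 and 3) and 3 libraries of wild-type cells (libraries 4, 5 and 6). Nt5e encodes CD73, which makes extracellular adenosine from AMP. Both genotypes carry the same labels otherwise, vascular smooth muscle cells of a primary mouse aorta line, grown in 10% serum and then kept in 0.5% serum for 48 h, a step the labels call differentiation. The sources used here give no strain, age or design of the Nt5e allele and do not say whether libraries stand for separate animals or cultures. The p-values therefore reflect no more than the spread among these libraries, which may be technical.

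Depth, the check of the genotype labels and the likeness of the libraries bear on all values. Depth was 19919095 to 22743666 exon reads in knock-out libraries and 20813477 to 23669252 in wild-type libraries. Nt5e itself (ENSMUSG00000032420) had 22, 1 and 2 exon reads in the knock-out libraries, against 615, 688 and 486 in the wild type, and its log2 fold change was -6.06 ± 0.82 (SE, edgeR quasi-likelihood test, adjusted p = 0.00577). Knock-out library 1 stood apart from the other two of its genotype. Its median absolute difference from knock-out libraries 2 and 3 was 0.35 log2 units for each, about the size of its differences from wild-type libraries (0.29 to 0.31). By the same measure, knock-out libraries 2 and 3 differed from each other by 0.07 and wild-type libraries 4 and 6 by 0.07. Those close pairs differed by more than counting noise, with chi-square per degree of freedom of 3.40 and 3.51. That does not show that they come from separate cultures, since repeats of 1 culture can differ as much. They are counted here as separate libraries, as labelled. The stem of the titles, the part before the letter p, differs within each close pair. Knock-out library 1 has the same stem as knock-out library 2, and wild-type library 5 the same as wild-type library 6. What the stems stand for is not given. Knock-out library 1 and wild-type library 5, the ones outside these pairs, share the number 1 before the S field of their titles, where the other 4 libraries have 2, and the labels do not say what that number is. Markers of the labelled cell type were uneven: of 10 listed smooth muscle markers, 6 had enough reads to be tested. Myocd had 5 reads in all knock-out libraries together and 2 in all wild-type libraries together. Des had 4 in the knock-out and 2 in the wild type. Acta2, the actin of smooth muscle, had 73.8, 546 and 525 CPM in the knock-out, against 69.2, 51.9 and 101 CPM in wild-type libraries 4, 5 and 6. Acta2 was thus high in knock-out libraries 2 and 3 alone. CPM are exon reads scaled for the depth of each library.

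In the knock-out cells the retinoic acid synthesis genes Aldh1a1, Aldh1a2 and Rdh10 fell, while Aldh1a3 and the receptor gene Rara rose. Dhrs3, Rarb and Cyp26b1 did not pass the test, and Crabp2 had too few reads to be tested. A gene was called at an adjusted p under 0.05 over all 12660 tested genes. That makes 5 of 8 tested retinoic acid genes called, 2 higher and 3 lower, in a comparison in which 27.8% of all tested genes were called, 14.1% higher and 13.7% lower. The retinoic acid genes were chosen with earlier results of these data known, so their count is no evidence of an excess. With limma-voom 28.2% of genes were called. Leaving out knock-out library 1 raised the share of all genes called to 66.2%. Leaving out 1 of the other libraries lowered it to 12.5% and 12.8% (knock-out libraries 2 and 3) or 8.71%, 13% and 10.8% (wild-type libraries 4, 5 and 6). Summing each close pair lowered it to 0.13%, and 0 of the 8 retinoic acid genes tested were then called by edgeR. Of these 8 genes, 3 had an unadjusted edgeR p under 0.05, beside 2640 of all 13041 tested genes. DESeq2 called 2 of them, beside 1635 genes in all, and limma-voom called 0, beside 9 genes in all. The median log2 fold change was 0.02 over these 8 genes and 0.02 over all tested genes. The libraries of the genotypes did not overlap for 5 of the 8 tested retinoic acid genes, the called ones. Among all tested genes 49.7% were without overlap, 24.3% with every knock-out library above and 25.5% with every knock-out library below the wild type. The calls rest on the same libraries, so this separation adds nothing to them.

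**Figure D1:**
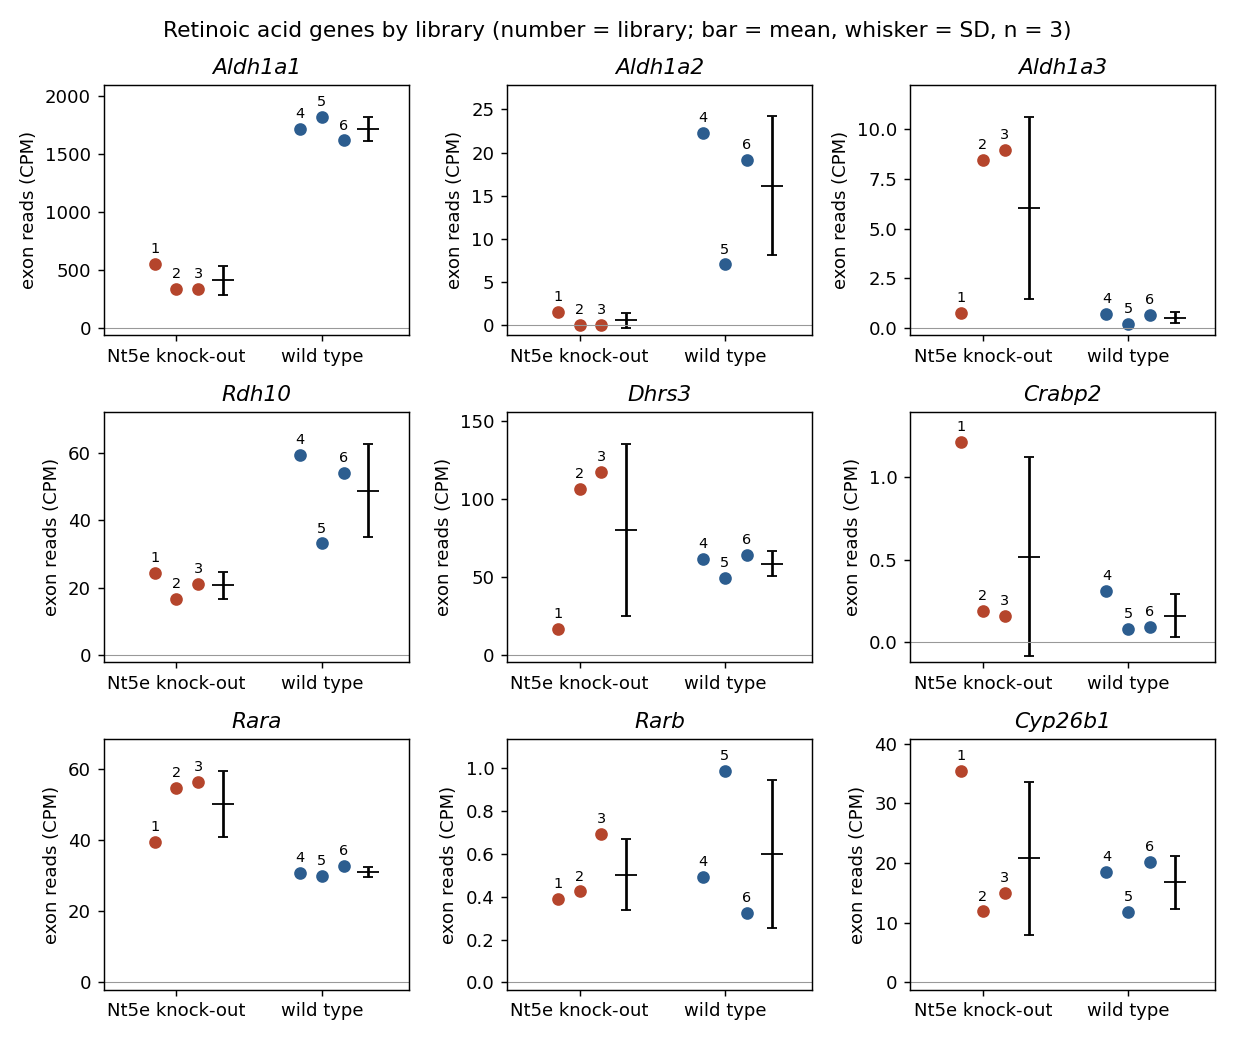
Exon reads (CPM, linear axes starting near 0) of the 9 retinoic acid genes in each Nt5e knock-out library (red, 1 to 3) and wild-type library (blue, 4 to 6). Short bars are means and whiskers SD (n = 3), and some lower whiskers run below 0. Aldh1a1 lies at 338 to 556 CPM in the knock-out and at 1618 to 1823 CPM in the wild type, and knock-out library 1 lies away from libraries 2 and 3 for Aldh1a3, Dhrs3, Crabp2 and Cyp26b1.

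Aldh1a1 (ENSMUSG00000053279, chromosome 19, 20492715 to 20643465, plus strand, GRCm38) encodes the retinal dehydrogenase that these cells expressed most. It had 12844, 7190 and 6349 exon reads in knock-out libraries 1, 2 and 3, against 38493, 44346 and 34931 in wild-type libraries 4, 5 and 6. On the CPM scale these were 556, 339 and 338 in the knock-out, against 1716, 1823 and 1618 in the wild type. Every knock-out library lay below every wild-type library, with knock-out library 1 the highest of its genotype. The mean was 411 ± 126 CPM in the knock-out and 1719 ± 102 CPM in the wild type (SD, n = 3 each). The log2 fold change was -2.06 ± 0.23 (SE, edgeR adjusted p = 0.00327), or 4.18-fold lower on the means. Among the 12660 tested genes, Aldh1a1 ranked 227, 526 and 526 by CPM in the knock-out libraries, against 27, 27 and 30 in the wild-type ones. In bulk RNA, fewer cells of a type and less RNA per cell cannot be told apart. The call held when any 1 library was left out, with log2 fold changes of -2.35 to -1.94 and an edgeR adjusted p of at most 0.0248. With each close pair of libraries summed, leaving 2 against 2, the log2 fold change was -1.96 and the edgeR adjusted p = 0.106.

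Because Aldh1a1 and Aldh1a2 fell together, the 250 bases before their RefSeq starts (GRCm38.p6, 5′ to 3′ on the gene's strand) are shown. For Aldh1a1 the window is chr19:20601718-20601967, before the second of 2 listed starts, and for Aldh1a2 it is chr9:71215539-71215788, both on the plus strand.
Aldh1a1: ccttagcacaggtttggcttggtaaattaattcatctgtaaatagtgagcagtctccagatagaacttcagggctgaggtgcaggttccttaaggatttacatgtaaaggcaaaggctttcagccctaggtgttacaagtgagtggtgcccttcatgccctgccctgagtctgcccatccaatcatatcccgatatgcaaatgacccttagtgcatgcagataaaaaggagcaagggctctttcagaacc
Aldh1a2: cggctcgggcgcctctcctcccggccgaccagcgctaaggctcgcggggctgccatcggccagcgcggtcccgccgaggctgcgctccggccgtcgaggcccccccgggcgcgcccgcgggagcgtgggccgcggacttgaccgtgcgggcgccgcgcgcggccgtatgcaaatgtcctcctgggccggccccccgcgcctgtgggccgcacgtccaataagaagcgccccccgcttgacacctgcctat
The windows differ in base composition. The Aldh1a1 window has a GC content of 46.4% and 1 CG dinucleotide, and the Aldh1a2 window has a GC content of 77.6% and 40 CG dinucleotides. The median over 32851 promoter windows was 52.4% GC and 6 CG dinucleotides, so the Aldh1a2 window lies above the upper quartile (61.2% and 16) and the Aldh1a1 window below the median.

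Aldh1a2 (ENSMUSG00000013584, chromosome 9, 71215789 to 71296243, plus strand) encodes the retinal dehydrogenase that makes most retinoic acid in the embryo. It had 36, 1 and 0 exon reads in knock-out libraries 1, 2 and 3, against 499, 171 and 414 in wild-type libraries 4, 5 and 6. In CPM these were 1.56, 0.0471 and 0 in the knock-out, against 22.2, 7.03 and 19.2 in the wild type. It was nearly absent from knock-out libraries 2 and 3, while 0 reads in knock-out library 3 allow up to 0.160 CPM (3 reads, counting error only). Wild-type library 5 was the lowest of its genotype and still lay above every knock-out library. The log2 fold change was -4.85 ± 1.28 (SE, edgeR adjusted p = 0.0386). Over summed reads the wild type was 27.1-fold higher than the knock-out (95% interval 19.5 to 38.6, counting error only). Against knock-out libraries 2 and 3 alone, which hold 1 read together, that ratio was 635 with an interval of 114 to 25091. The call was lost when any library but knock-out library 1 was left out (edgeR adjusted p up to 0.134), and limma-voom gave an adjusted p of 0.0699. Without knock-out library 1 it remained (edgeR adjusted p = 4.75e-04), in a fit that called 66.2% of all tested genes. The knock-out libraries of that fit, 2 and 3, are a close pair.

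Aldh1a3 (ENSMUSG00000015134, chromosome 7, 66390890 to 66427517, minus strand), the third retinal dehydrogenase, moved the other way. It had 18, 179 and 168 exon reads in knock-out libraries 1, 2 and 3, against 16, 5 and 14 in wild-type libraries 4, 5 and 6. In CPM these were 0.779, 8.44 and 8.94 in the knock-out, against 0.713, 0.206 and 0.649 in the wild type. The high values were those of knock-out libraries 2 and 3, and knock-out library 1 lay just above the highest wild-type library. Its log2 fold change was 3.53 ± 1.00 (SE, edgeR adjusted p = 0.0462). Leaving out knock-out library 1 gave 4.05 (edgeR adjusted p = 1.65e-04), in a fit that kept only the close pair of knock-out libraries and called 66.2% of all tested genes. The call was lost when any other library was left out (edgeR adjusted p up to 0.142). limma-voom gave an adjusted p of 0.229. With the number after the letter p in the library titles as a covariate (11 in knock-out library 1 and wild-type libraries 4 and 5, 12 in the others) the log2 fold change was 2.32 and the call was lost (edgeR adjusted p = 0.131).

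Levels of the 3 retinal dehydrogenases can be set beside each other only per length, in the authors' RPKM. Aldh1a1 averaged 150 ± 53.7 RPKM in the knock-out and 657 ± 35.1 RPKM in the wild type, Aldh1a2 averaged 0.225 ± 0.373 RPKM in the knock-out and 6.82 ± 3.42 RPKM in the wild type, and Aldh1a3 averaged 1.20 ± 0.898 RPKM in the knock-out and 0.113 ± 0.06 RPKM in the wild type (SD, n = 3 each). Aldh1a1 therefore made up 98.5% to 99.6% of the summed RPKM of the 3 genes in every library. The sum was 213, 121 and 121 RPKM in knock-out libraries 1, 2 and 3, against 668, 694 and 630 RPKM in wild-type libraries 4, 5 and 6. The higher level of Aldh1a3 in knock-out libraries 2 and 3 made it 1.38% and 1.47% of the sum, and Aldh1a2 made up 0.423% to 1.41% of it in the wild type.

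Rdh10 (ENSMUSG00000025921, chromosome 1, 16105774 to 16133734, plus strand) encodes the retinol dehydrogenase of the first oxidation. It had 565, 353 and 396 exon reads in knock-out libraries 1, 2 and 3, against 1330, 806 and 1167 in wild-type libraries 4, 5 and 6. In CPM these were 24.5, 16.6 and 21.1 in the knock-out, against 59.3, 33.1 and 54.1 in the wild type. The groups did not overlap, and wild-type library 5, again the lowest of its genotype, lay nearest the knock-out. Knock-out over wild type, the log2 fold change was -1.24 ± 0.26 (SE, edgeR adjusted p = 0.0193). The call held without knock-out library 1 or wild-type library 5 and was lost without any of the other 4 (edgeR adjusted p up to 0.0763). Rdh10 thus fell beside Aldh1a1 and Aldh1a2, at the step before theirs.

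Dhrs3 (ENSMUSG00000066026, chromosome 4, 144892827 to 144928209, plus strand) encodes the retinal reductase that works against Rdh10 and is itself induced by retinoic acid. It had 387, 2257 and 2207 exon reads in knock-out libraries 1, 2 and 3, against 1384, 1201 and 1389 in wild-type libraries 4, 5 and 6. In CPM these were 16.8, 106 and 117 in the knock-out, against 61.7, 49.4 and 64.3 in the wild type. The knock-out libraries lay on both sides of the wild type, library 1 below all of it and libraries 2 and 3 above all of it. With this split the log2 fold change was 0.45 ± 0.66 (SE, edgeR adjusted p = 0.629). Without knock-out library 1 it was 0.93 and passed the test (edgeR adjusted p = 5.14e-04), so that 1 library decides the call. That fit set only the close pair, knock-out libraries 2 and 3, against the wild type, and it called 66.2% of all tested genes. With the same title number as a covariate the log2 fold change of Dhrs3 was -0.44 (edgeR adjusted p = 0.654).

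Crabp2 (ENSMUSG00000004885, chromosome 3, 87948666 to 87953376, plus strand), the carrier that hands retinoic acid to its receptors, was close to the detection limit. It had 28, 4 and 3 exon reads in knock-out libraries 1, 2 and 3, against 7, 2 and 2 in wild-type libraries 4, 5 and 6, and did not pass the filter on low counts. Most of its knock-out reads came from library 1 (1.21 CPM, exact 95% Poisson interval 0.805 to 1.75), and the groups overlapped. The ratio of summed reads, knock-out over wild type, was 3.45 with an interval of 1.71 to 7.52 that covers counting error only.

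Rara (ENSMUSG00000037992, chromosome 11, 98927818 to 98974942, plus strand) encodes retinoic acid receptor alpha. It had 913, 1158 and 1057 exon reads in knock-out libraries 1, 2 and 3, against 689, 725 and 703 in wild-type libraries 4, 5 and 6. In CPM these were 39.5, 54.6 and 56.2 in the knock-out, against 30.7, 29.8 and 32.6 in the wild type. Every knock-out library lay above every wild-type library, with library 1 the nearest to them. Rara rose, at a log2 fold change of 0.69 ± 0.15 (SE, edgeR adjusted p = 0.0209), or 1.61-fold on the means. It was 0.83 without knock-out library 1, and the call was lost when any other library was left out (edgeR adjusted p up to 0.0891).

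Rarb (ENSMUSG00000017491, chromosome 14, 16430839 to 16819156, minus strand) encodes retinoic acid receptor beta, whose promoter is the textbook example of a retinoic acid response element. It had 9, 9 and 13 exon reads in knock-out libraries 1, 2 and 3, against 11, 24 and 7 in wild-type libraries 4, 5 and 6, or 0.390, 0.424 and 0.692 CPM in the knock-out, against 0.490, 0.987 and 0.324 CPM in the wild type. The groups overlapped throughout, and wild-type library 5 was the highest. For Rarb the log2 fold change was -0.27 ± 0.53 (SE, edgeR adjusted p = 0.727), and it was 0.29 without wild-type library 5. Rarb also overlaps Top2b, a gene on the opposite strand with 4432, 5675 and 5217 reads in knock-out cells, against 2896, 3220 and 3091 in wild-type cells, and the handling of strand in the counting is not given in the sources used here. Genes of chromosome 14 had a median log2 fold change of 0.40 over 427 tested genes.

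The window of 250 bases before the RefSeq start of Rarb (chr14:16575477-16575726, minus strand, GRCm38.p6) holds the element, shown in capitals as its 2 half-sites, GGTTCA and AGTTCA, which lie 5 bases apart at positions -53 to -37 from the start.
Rarb: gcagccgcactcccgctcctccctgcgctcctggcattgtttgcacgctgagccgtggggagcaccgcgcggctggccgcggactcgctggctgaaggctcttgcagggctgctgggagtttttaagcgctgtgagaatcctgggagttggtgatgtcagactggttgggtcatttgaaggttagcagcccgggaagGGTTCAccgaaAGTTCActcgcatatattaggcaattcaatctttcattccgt
This arrangement of half-sites, called DR5, was searched on both strands together with DR1 and DR2, in which the half-sites lie 1 and 2 bases apart. The searched windows also took in a short stretch after the start. Elements farther from the start were not searched for. Windows were listed for 6 of the 9 retinoic acid genes (12 windows), and only the Rarb window among them held a DR5, while none held a DR1 or DR2. DR5 occurred in 32 of 32851 windows (0.0974%), DR1 in 0.222% and DR2 in 0.268%. Among 73 windows of other genes of the pathway, DR5 occurred in 1, that of Cyp26a1. Both genes whose windows held the element had few reads in either genotype, Rarb as above and Cyp26a1 with 1 read in the knock-out and 0 in the wild type.

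Cyp26b1 (ENSMUSG00000063415, chromosome 6, 84571414 to 84593908, minus strand) encodes an enzyme that degrades retinoic acid and is induced by it. It had 818, 252 and 282 exon reads in knock-out libraries 1, 2 and 3, against 414, 286 and 434 in wild-type libraries 4, 5 and 6. In CPM these were 35.4, 11.9 and 15 in the knock-out, against 18.5, 11.8 and 20.1 in the wild type. Knock-out library 1 was the highest of all, and the other two lay within the wild-type range. The log2 fold change was 0.31 ± 0.45 (SE, edgeR adjusted p = 0.635). Its direction turned to -0.33 without knock-out library 1 (edgeR adjusted p = 0.264).

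**Figure D2:**
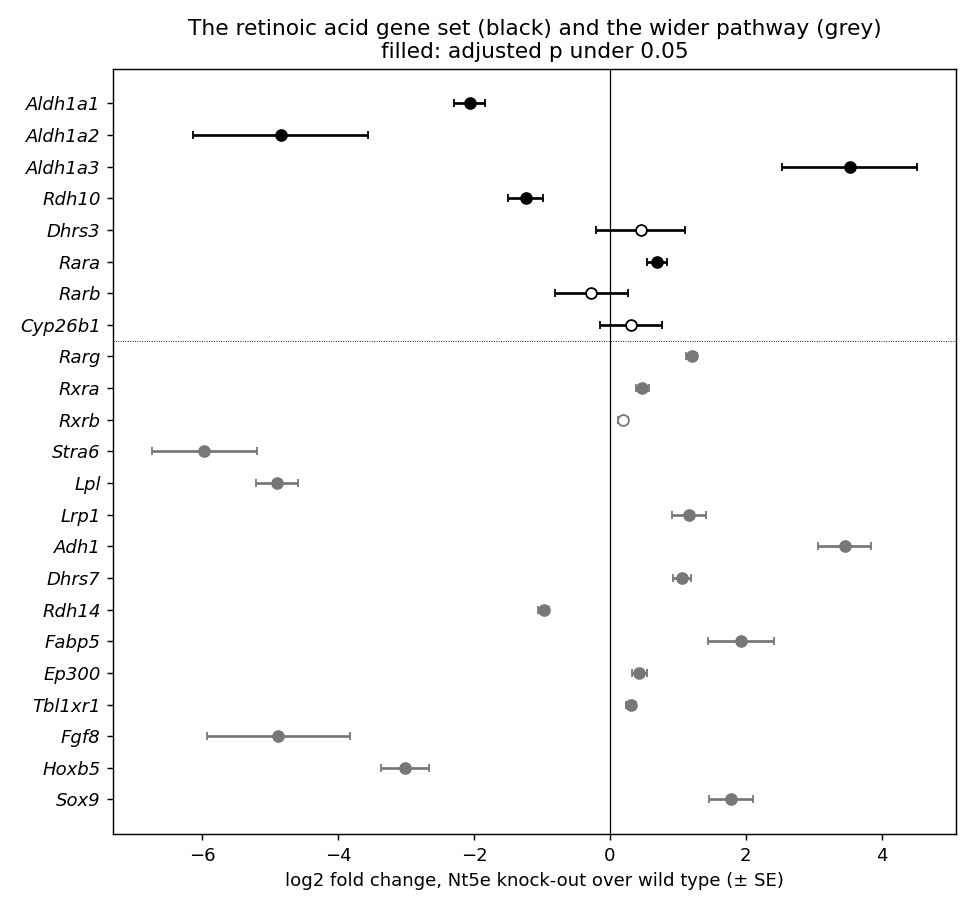
Log2 fold changes, Nt5e knock-out over wild type, with SE (horizontal axis), of the 8 tested retinoic acid genes (black) and of named genes of the wider pathway (grey). Filled points passed an adjusted p of 0.05. Aldh1a1, Aldh1a2 and Rdh10 lie left of 0 at -2.06, -4.85 and -1.24, and Aldh1a3 and Rara right of it at 3.53 and 0.69.

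Intron reads and reads across exon junctions of the same genes were counted separately by the authors. Junction reads were called for fewer genes than exon reads. Of 6 retinoic acid genes with enough of them, Aldh1a1 (log2 fold change -1.99, edgeR adjusted p = 0.00268), Aldh1a2 (-5.14, adjusted p = 0.0151) and Rdh10 (-1.21, adjusted p = 0.0156) fell, against 22.9% of all tested genes called and 11.5% called lower. Rara, called on exon reads, had a junction log2 fold change of 0.64 and was not called (edgeR adjusted p = 0.0574). Intron reads did so only for some: 2 of 8 were called, both lower, against 12% of all tested genes called and 7.03% called lower. Aldh1a2 had 0, 0 and 1 intron reads in knock-out libraries 1, 2 and 3, against 26, 22 and 17 in wild-type libraries 4, 5 and 6 (log2 fold change -5.57 ± 0.69, edgeR adjusted p = 0.00172). Rdh10 had 45, 43 and 41 in the knock-out, against 105, 67 and 88 in the wild type (-1.01 ± 0.22, adjusted p = 0.0219).

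Aldh1a1, whose exon reads fell 4.18-fold, did not show a like difference in introns. It had 450, 629 and 664 intron reads in knock-out libraries 1, 2 and 3, against 688, 762 and 651 in wild-type libraries 4, 5 and 6, and the groups overlapped. Its intron log2 fold change was -0.28 ± 0.15 (SE, edgeR adjusted p = 0.292). The difference between its exon and intron changes was not tested. A transcript (C730002L08Rik) and a pseudogene (Gm6684) on the opposite strand lie within or across its annotated span, and whether intron reads of Aldh1a1 include theirs is not known. Aldh1a3 had 13, 14 and 23 intron reads in the knock-out, against 11, 9 and 15 in the wild type, and an intron log2 fold change of 0.51 ± 0.38 (edgeR adjusted p = 0.446) beside its exon value of 3.53. For Rara the intron log2 fold change was -0.26 ± 0.15 (edgeR adjusted p = 0.294), of opposite sign to its exon value. Dhrs3 intron reads split as its exon reads did, with 52, 384 and 397 in the knock-out libraries and 230, 174 and 241 in the wild type.

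**Figure D3:**
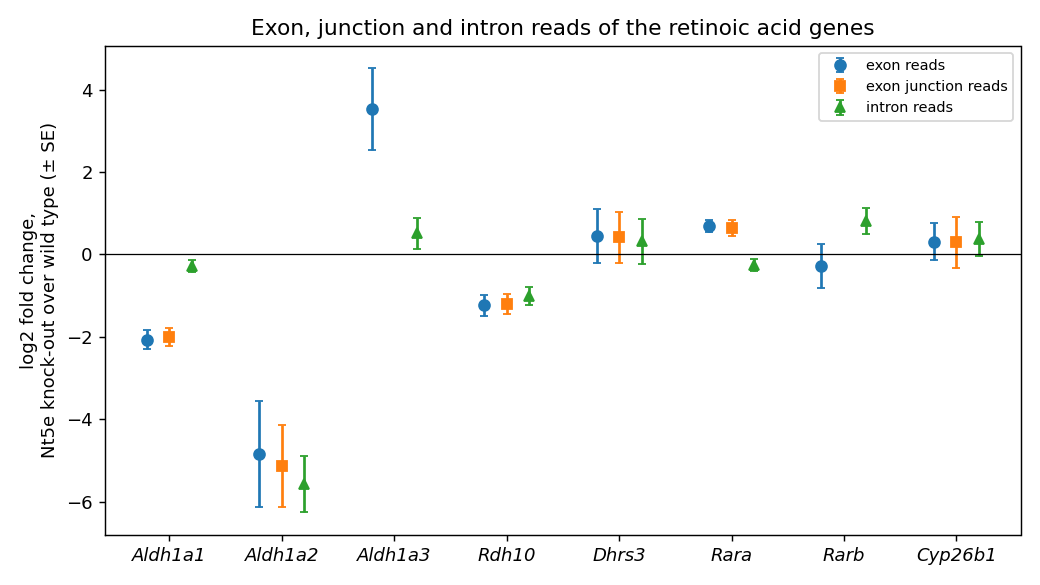
Log2 fold changes, Nt5e knock-out over wild type, with SE (vertical axis), from exon, exon junction and intron reads of the 8 retinoic acid genes tested on exon reads. Aldh1a3 and Rarb had too few junction reads for a point. For Aldh1a1 the exon and junction values are -2.06 and -1.99 and the intron value is -0.28, whereas for Aldh1a2 and Rdh10 all 3 lie below -1.

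Other genes of the pathway were taken from lists of uptake, conversion, binding, cofactor and response genes. Of 86 listed genes, 61 were tested, and 29 of them were called, 17 higher and 12 lower in the knock-out, where 27.8% of all tested genes were called. The lists were chosen with earlier results of these data known, so this count is no evidence of an excess in the pathway. Among receptors, Rarg, encoding retinoic acid receptor gamma, had 4669, 4828 and 4275 exon reads in the knock-out, against 2133, 2314 and 2057 in the wild type. It averaged 219 ± 14.7 CPM in the knock-out and 95.2 ± 0.102 CPM in the wild type (SD, n = 3 each), and its log2 fold change was 1.20 ± 0.08 (SE, edgeR adjusted p = 7.44e-04). Rarg was also the most abundant of the 3 retinoic acid receptor genes per length, at 51.4 ± 1.10 RPKM in the knock-out and 23.7 ± 0.175 RPKM in the wild type. Rara followed at 10.5 ± 1.5 RPKM in the knock-out and 6.92 ± 0.352 RPKM in the wild type, and Rarb was lowest at 0.109 ± 0.033 RPKM in the knock-out and 0.139 ± 0.0786 RPKM in the wild type. The rise of Rarg held in each fit that left out 1 library, and with each close pair summed its edgeR adjusted p was 0.0789. Less the median of its chromosome, its log2 fold change was 0.98. With intron reads it was 0.70 (edgeR adjusted p = 0.0234). Rxra, a partner receptor, rose with a log2 fold change that reached 0.48 ± 0.10 (SE, edgeR adjusted p = 0.0192), a call lost when any library but knock-out library 1 was left out. Rxrb had 0.19 (adjusted p = 0.101), and Rxrg had 0 reads in every library.

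Genes of retinol uptake and storage gave 1 rise and 2 falls among 7 tested, where 27.8% of all tested genes were called. Their median log2 fold change was -0.09. Stra6, the membrane receptor for circulating retinol-binding protein, had 0, 0 and 1 exon reads in knock-out libraries 1, 2 and 3, against 36, 27 and 29 in wild-type libraries 4, 5 and 6 (edgeR adjusted p = 0.00528). Over summed reads the wild type was 85.0-fold higher than the knock-out, with an exact interval of 14.9 to 3392 for counting error. Lpl, the lipoprotein lipase that also frees retinyl esters, averaged 2.29 ± 1.04 CPM in the knock-out and 69.2 ± 3.27 CPM in the wild type (log2 fold change -4.90 ± 0.31, edgeR adjusted p = 7.49e-04). Lrp1, a receptor for lipoprotein remnants, rose (1.16 ± 0.25, adjusted p = 0.0214). Lrat, which esterifies retinol for storage, had 0 reads in every library.

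The other dehydrogenases and reductases gave 3 rises (Adh1, Dhrs7, Dhrs4) and 2 falls (Rdh14, Rdh5) among 13 tested, beside 27.8% of all tested genes called. Their median log2 fold change was 0.01. Adh1, an alcohol dehydrogenase that also oxidises retinol, averaged 8.03 ± 2.82 CPM in the knock-out and 0.727 ± 0.213 CPM in the wild type (3.45 ± 0.39, edgeR adjusted p = 0.0035). Rdh14 averaged 19.9 ± 1.01 CPM in the knock-out and 39.0 ± 1.89 CPM in the wild type (-0.97 ± 0.08, adjusted p = 0.00155). This list of enzymes thus gave no single direction. Fabp5, which binds retinoic acid and carries it to another nuclear receptor, rose (1.93 ± 0.48, edgeR adjusted p = 0.0332). Crabp1 had 13 reads in the knock-out and 6 in the wild type, and Cyp26c1 had 0 in the knock-out and 1 in the wild type. Of 10 receptor cofactors, Ep300 (0.44 ± 0.11, adjusted p = 0.0346) and Tbl1xr1 (0.32 ± 0.07, adjusted p = 0.0263) rose, and none was called lower, so that 2 of 10 were called where 27.8% of all tested genes were. Tbl1xr1 was not called with total counts in place of TMM (adjusted p = 0.131), with junction reads (0.259) or with title stems summed (0.0517). Ep300 was not called with the title number after p as a covariate (adjusted p = 0.053), and its log2 fold change less the median of its chromosome was 0.21. The same covariate ended the call of Fabp5 (adjusted p = 0.0504).

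Genes known from other systems to respond to retinoic acid moved in both directions. Of 26 tested, 8 rose (among them Hoxa2, Hoxa4, Meis1, Foxc1, Gata6, Egr1 and Sox9) and 8 fell (Tgm2, Hoxb2, Hoxb3, Hoxb4, Hoxb5, Meis2, Gata4 and Fgf8), where 27.8% of all tested genes were called. The median log2 fold change of the 26 was -0.13. Hoxa2 and Hoxa4 were thus among the rises, and Hoxb2 to Hoxb5 among the falls. Hoxa3 (log2 fold change 0.28, edgeR adjusted p = 0.0538) and Hoxa5 (-0.44, adjusted p = 0.168) were not called and differed in sign. Hoxb5 averaged 1.77 ± 0.706 CPM in the knock-out and 14.2 ± 1.98 CPM in the wild type (-3.01 ± 0.35, edgeR adjusted p = 0.00388). Fgf8, a growth factor, had 6, 0 and 0 exon reads in the knock-out, against 70, 45 and 79 in the wild type (edgeR adjusted p = 0.0216). Sox9, a transcription factor of cartilage, averaged 41.2 ± 16.1 CPM in the knock-out and 12 ± 0.78 CPM in the wild type (1.78 ± 0.32, adjusted p = 0.0127). The calls of Fgf8, Lrp1, Fabp5, Ep300 and Tbl1xr1 were lost when any library but knock-out library 1 was left out (edgeR adjusted p up to 0.121), and that of Sox9 without any 1 wild-type library (up to 0.0662). Those of Stra6, Lpl, Adh1, Dhrs7, Rdh14 and Hoxb5 held in each such fit. Dhrs3, Cyp26b1 and Rarb, the last with few reads, were not called, and Cyp26a1 had too few reads to be tested. The called responders of the list gave no single direction.

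Markers of other cell types moved beside these genes, in a comparison in which 27.8% of all tested genes were called. Aldh1a2 is itself used as a marker of mesothelium and was left out of that list. For 14 mesothelium markers the summed level was 978, 319 and 325 CPM in the knock-out libraries, against 3718, 3574 and 3878 CPM in wild-type libraries 4, 5 and 6. Of 12 tested, 10 fell (Msln, Upk3b, Upk1b, Wt1, Lrrn4, Krt19, Krt8, Krt7, Bnc1 and Muc16) and 1 rose (Tbx18), with a median log2 fold change of -4.48. Muc16, Krt8 and Krt18 were at 0 reads in all 3 knock-out libraries, against 7430, 43 and 21 reads in the wild type. The sum of knock-out library 1 came mostly from Gpm6a, at 583, 45.1 and 46.4 CPM in the knock-out, against 257, 223 and 279 CPM in the wild type (not called). Without Gpm6a, left out after its values were seen, the sums were 395, 274 and 278 CPM in the knock-out, against 3461, 3351 and 3599 CPM in the wild type. The part of these cells in the falls of Aldh1a1, Aldh1a2, Rdh10 and Stra6 was not tested.

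The fibroblast markers came to 5658, 15380 and 17216 CPM in the knock-out (libraries 1, 2 and 3), against 5988, 5959 and 6021 CPM in wild-type libraries 4, 5 and 6, and 3 of 9 tested rose (Pdgfra, Pi16, Scara5). Smooth muscle markers summed to 188, 700 and 674 CPM in the knock-out, against 158, 137 and 208 CPM in the wild type, and of 6 tested Smtn rose and Cnn1 fell. Acta2 alone gave 73.8, 546 and 525 CPM of this in the knock-out, against 69.2, 51.9 and 101 CPM in the wild type. It was not called (edgeR adjusted p = 0.0633), and the split of the smooth muscle sum is mostly its own. In both sums knock-out libraries 2 and 3 were the high ones, as they were for Aldh1a3 and Dhrs3. The part of these lists in those values was not tested. Pericyte markers summed to 354, 984 and 1027 CPM in the knock-out, against 212, 227 and 215 CPM in the wild type (2 of 4 tested rose, 1 fell). Epithelium markers summed to 7.06, 13.1 and 12.9 CPM in the knock-out, against 97.5, 81.9 and 96.3 CPM in the wild type, and both that were tested fell (Cdh1, Krt14). Endothelium markers summed to 2.60, 6.93 and 6.28 CPM in the knock-out, against 1.92, 3.17 and 1.16 CPM in the wild type. Kdr, the only one tested, rose (log2 fold change 3.17, edgeR adjusted p = 0.0138), and Tie1 was at 0 in every library. Leukocyte markers summed to 22.1, 25.3 and 22.0 CPM in the knock-out, against 70.4, 64.4 and 60.5 CPM in the wild type, with Ptprc and Itgam at 0 reads in every library. Of 4 tested, Lyz2 rose and Cd68 and Cd14 fell.

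**Figure D4:**
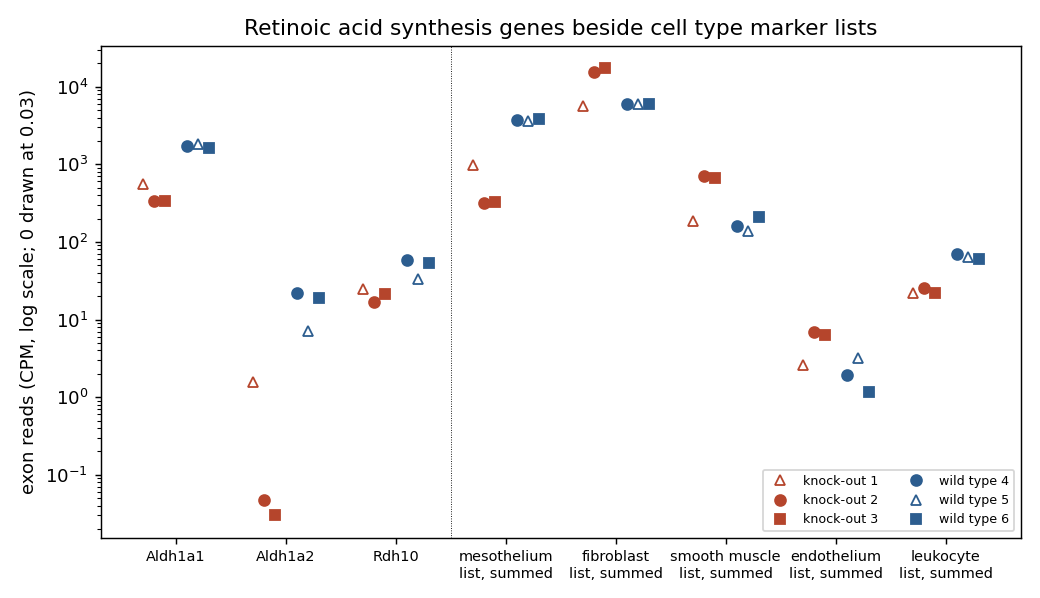
Exon reads (CPM, log axis, with 0 drawn at 0.03) of Aldh1a1, Aldh1a2 and Rdh10 and summed CPM of 5 cell type marker lists, in each Nt5e knock-out library (red) and wild-type library (blue). Triangles mark knock-out library 1 and wild-type library 5, which lie outside the close pairs. The mesothelium sum lies at 319 to 978 CPM in the knock-out and at 3574 to 3878 CPM in the wild type.

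The genes with the most similar pattern were found by the root mean square distance between mean-centred log2 CPM values over the 6 libraries, a description with no test. For Aldh1a1 the nearest was Ccdc80 (distance 0.0344), at 262, 153 and 155 CPM in the knock-out and 768, 846 and 709 CPM in the wild type, followed by Bicdl1 (0.0987). Aldh1a2 had no such close companion, and its nearest was Atp9a at 0.485, then Fgf23 (0.544) and Flt4 (0.561). The nearest to Aldh1a3 was Radil (0.246), then Pde3b and Ptger4, and the nearest to Rdh10 was Msh5 (0.144), then Ydjc and Psmb9. For Dhrs3 it was Kctd15 (0.132), with 7.40, 49.1 and 56.3 CPM in the knock-out and 30.6, 29.1 and 30.2 CPM in the wild type, then Crybg1 and Pcdhgb5. These genes were picked for their likeness to Dhrs3, so the same split of the knock-out libraries in Kctd15 is no separate evidence. Among the nearest to Rara were Zfp827 (0.0306) and Stimate (0.0331). For Rarb, which rests on few reads, they were Ftl1-ps1, Gpd1 and C1qtnf5 (0.154 to 0.210), and for Cyp26b1 P2rx5, Olfr920 and Sez6l (0.126 to 0.131).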

How the data were processed

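Poly(A) RNA of 6 libraries was measured, from 1 ug of total RNA each with a stranded kit, per the labels' protocols. The deposited table holds, for each gene and library, counts made by the authors (exon, unique exon, exon junction and intron reads) and RPKM by the authors, scaled by exon length and depth. Its expression value is the total exon read count throughout. Per the submitters' processing notes, the genome build was GRCm38 (mm10). Which aligner and counter were used, and whether counting used strand, is not given in the sources used here. Coordinates of all 9 genes matched GENCODE release M21.

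Exon counts of all 6 libraries were tested by genotype with edgeR 4.0.16 (R 4.3.3): filterByExpr with a minimum count of 10, TMM scaling, the quasi-likelihood F test and Benjamini-Hochberg adjustment at 0.05 over 12660 genes. Differences are knock-out over wild type. CPM use TMM-adjusted library sizes, and log2 CPM for profiles a prior count of 2. RPKM served only to compare levels between genes. Intervals are exact at 95% and cover counting error only. Sequences are from RefSeq promoter windows. The fit was tested on simulated data with 200 genes changed. It called 32.7% of 2-fold changes and 75.3% of the larger ones, and 5.41% of its calls were false. The simulated libraries were drawn independently and hold no close pairs, unlike the measured ones.

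The 9 genes, the pathway lists and the marker lists were chosen with earlier results of these data known. Named from the pathway lists are up to 3 called genes of largest change per list, all receptor genes and Cyp26a1, Cyp26c1, Crabp1, Stra6 and Lrat, and per retinoic acid gene the 3 nearest profiles. A few genes that these rules name are not reported here. Myocd, Des, Acta2, Top2b, Hoxa3 and Hoxa5 were also named. Alternatives were no filter, 50 reads in 3 libraries, total counts, DESeq2 size factors, DESeq2 1.42.0, limma-voom (limma 3.58.1), unique exon, junction or intron reads, title numbers as covariates, title stems or close pairs summed, and leaving out each library. The close pairs alone were added after seeing the data. Python 3.11.15 with matplotlib 3.10.9 drew the plots.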

Additional observations from a re-analysis of the deposited data

How the results depend on the processing

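No paired analysis was possible because sample numbers run 1 to 3 in the knock-out and 4 to 6 in the wild type. Title numbers of unstated meaning recur across genotypes, and as covariates they left 4 retinoic acid genes called (number after p, without Aldh1a3) and 5 (last number before S). Those fits called 24.7% and 35.6% of all tested genes, where the fit without covariates called 27.8%. Of 12660 tested genes, 3524 were called. That count was 1280 of 10653 with intron reads, 17 with both close pairs of libraries summed (2640 at an unadjusted p under 0.05; 1635 with DESeq2 and 9 with limma-voom), 9286 with the close pairs alone, and 1120 to 8486 with 1 library left out, the highest without knock-out library 1. Total counts in place of TMM shifted the median by -0.095 on the log2 scale and called 1353 higher and 2022 lower, against 1788 and 1736.

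Of the 5 called retinoic acid genes, 3 were called with limma-voom, 3 with junction reads, 2 with intron reads and 0 with summed pairs by edgeR (3 at an unadjusted p under 0.05, Aldh1a1, Rdh10 and Rara; 2 by DESeq2, Aldh1a1 and Aldh1a2; 0 by limma-voom). With 1 library left out, 1 to 6 of the 8 tested were called, the 6 without knock-out library 1 including Dhrs3. The count for the wider pathway, 29, was 10 with intron reads, 0 with summed pairs by edgeR (26 unadjusted; 21 by DESeq2; 0 by limma-voom), 51 with the close pairs alone and 13 to 47 with 1 library left out.

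The log2 fold change turned to -0.44 for Dhrs3 with the title number after p as a covariate. With intron reads it turned to -0.26 for Rara, 0.81 for Rarb and -0.17 for Ep300. With 1 library left out, Rarb ranged over -0.56 to 0.29 (the highest without wild-type library 5) and Cyp26b1 over -0.33 to 0.59 (the lowest without knock-out library 1). With the close pairs alone they were 0.41 and -0.54. The causes were not tested. Depth limits Crabp2 and Rarb, which had at most 28 reads in any library. Only the fall of Aldh1a1, of the 5 calls, held in every fit that left out 1 library.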
